A study of Homo sapiens with 14 samples.

Results

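The genes of the cytosolic ribosomal proteins were taken from the deposited count table by name. A row was kept where its whole gene name was RPL or RPS followed by digits, with an optional A, or X for the small subunit, or was RPLP0, RPLP1, RPLP2 or RPSA. This gave 77 of 58780 genes, of which 46 encode proteins of the large (60S) subunit and 31 proteins of the small (40S) subunit. Pseudogenes and paralogs with other suffixes stayed outside. The choice used names and no measured value.

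Nascent transcription had been measured by PRO-seq, which sequences RNA that engaged RNA polymerases extended with biotinylated nucleotides in permeabilized cells. All libraries came from A549, a human lung adenocarcinoma line, with about the same number of cells in each, and every group had DMSO at 0.01%. GSK591, an inhibitor of PRMT5, and MS023, an inhibitor of the type I protein arginine methyltransferases, were given at 1 µM, and dexamethasone (Dex), a synthetic glucocorticoid, at 100 nM. The 14 libraries formed 7 groups of 2: untreated cells under a 15 min label, GSK591 for 15 min, MS023 for 15 min, GSK591 with Dex for 15 min, MS023 with Dex for 15 min, GSK591 for 3 h and MS023 for 3 h. Untreated cells held for 3 h and cells given Dex alone were not analysed here, so against untreated cells the 3 h of culture and the inhibitor cannot be told apart. The labels number the libraries of a group without saying that they came from separate cultures, so the p-values below measure the spread between these libraries, which may be technical.

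Ribosomal proteins are made in near-equal amounts and assemble with ribosomal RNA in the nucleolus. Their genes are among the most actively transcribed of a growing cell, are mostly short, often carry small nucleolar RNAs in their introns, and start transcription at a C within a run of pyrimidines. That start becomes the 5′ terminal oligopyrimidine (TOP) motif of the mRNA, through which mTOR signalling controls translation. Several ribosomal proteins, RPS2 and RPS10 among them, are themselves substrates of arginine methyltransferases.

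The start sites are shown because the TOP motif is the feature the gene family shares. RefSeq (GRCh38.p14) start regions were matched for 62 of the 77 genes. A TOP motif, read as a C at the annotated start followed by at least 4 pyrimidines, was present at an annotated start of 46 of these 62 genes (74.2%), against 5.1% of 27305 genes in the same table. Within 10 bases of a start it was found in 91.9% and 38.4%. The sequences below run 5′ to 3′ on the gene's strand from 30 bases before the annotated start to 20 bases into the transcript, with the TOP tract in capitals. The first 4 genes carried the TOP motif and were lower at 3 h with both inhibitors, RPL28 was lower with Dex, RPL39 lay above its untreated level in all treated groups, and RPS19 had the highest level and passed no test. RPL9 and RPS26 had no TOP tract at the annotated start.
RPS23 (chr5:82278335-82278384, minus strand): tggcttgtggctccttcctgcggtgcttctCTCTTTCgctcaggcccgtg
RPL13A (chr19:49487578-49487627, plus strand): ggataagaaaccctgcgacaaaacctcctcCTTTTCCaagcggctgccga
RPL10 (chrX:154398347-154398396, plus strand, 1 of several annotated starts): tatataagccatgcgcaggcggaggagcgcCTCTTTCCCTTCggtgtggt
RPS16 (chr19:39435930-39435979, minus strand): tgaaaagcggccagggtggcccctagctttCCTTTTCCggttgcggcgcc
RPL28 (chr19:55385902-55385951, plus strand): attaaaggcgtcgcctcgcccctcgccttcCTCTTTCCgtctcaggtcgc
RPL39 (chrX:119791611-119791660, minus strand): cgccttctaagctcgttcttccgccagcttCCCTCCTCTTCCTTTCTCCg
RPS19 (chr19:41860225-41860274, plus strand, 1 of several annotated starts): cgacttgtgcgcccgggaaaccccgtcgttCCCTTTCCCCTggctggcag
RPL9 (chr4:39458903-39458952, minus strand): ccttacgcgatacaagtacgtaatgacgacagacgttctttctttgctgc
RPS26 (chr12:56041888-56041937, plus strand): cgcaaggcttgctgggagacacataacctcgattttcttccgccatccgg

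In the 300-base start regions (250 bases before to 50 after the annotated start, both strands), CCGGAAG, a form of the ETS and GABP motif, occurred in 35.5% of the 62 ribosomal protein genes and in 12.2% of all genes in the table. GGGCGG, the core of the Sp1 motif, occurred in 58.1% and 48.3%, and AAGATGG, a core of the YY1 motif, in 12.9% and 7.1%. TATAAA was found in 8.1% against 14.0%, and CCAAT in 35.5% against 39.7%. Each motif was searched on its own, so that matches of different motifs can overlap, and a match is a description of the letters in the window.

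The libraries held 5768312 to 9606938 counts, of which mitochondrial genes took 39.8% to 58.0%. The ribosomal protein genes took 0.551% to 0.832%. All 77 passed the filter on low counts, and the lowest count of any of them in any library was 31 (RPS10), with a median of 577.5. The 12 marker genes of A549 were present in every library, the lowest at 13.2 CPM (read counts scaled to the library size; KRT19), and CDKN2A, which this line has lost, had at most 1 count. Markers of blood, endothelium, liver and fibroblasts stayed at 10 counts or fewer, apart from COL1A1 at 4.83 to 7.88 CPM. The 2 libraries of GSK591 with Dex stood furthest apart (r = 0.971 across genes, against 0.981 to 0.986 in the other groups) and differed most in mitochondrial share. Of the ribosomal protein genes, 39 share exon bases with another gene that is no snoRNA, 15 of them on the same strand and 29 on the opposite strand, and the strand setting of the counting was not given. Their values are uncertain to that extent.

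In untreated cells the ribosomal protein genes were transcribed far above most genes. Their median level was 21.9 CPM per kb of exon, against 2.66 for 14351 tested protein-coding genes, and all 77 lay above that second value. RPS19, a 40S protein that is mutated in Diamond-Blackfan anaemia, had the highest level at 85.5 ± 3.4 CPM per kb (SD, n = 2). RPS16, a 40S protein, followed at 77.2 ± 4.1 (SD, n = 2), and RPL12, a protein of the stalk base, at 66.5 ± 1.6 (SD, n = 2). The gap between RPS19 and RPS16 was little more than the sum of their SDs, and RPL13A at 66.0 ± 3.5 (SD, n = 2) could not be told from RPL12. The lowest levels were those of RPS10, a 40S protein at the mRNA entry, at 3.27 ± 0.43 CPM per kb (SD, n = 2), of RPL5, which binds 5S ribosomal RNA, at 5.03 ± 0.77, and of RPS29, a small 40S protein, at 6.66 ± 0.27. The levels per kb assume that reads were counted in exons, since the counted feature is not given in the sources used here. The plot of levels by gene shows the whole range.

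**Figure D1:**
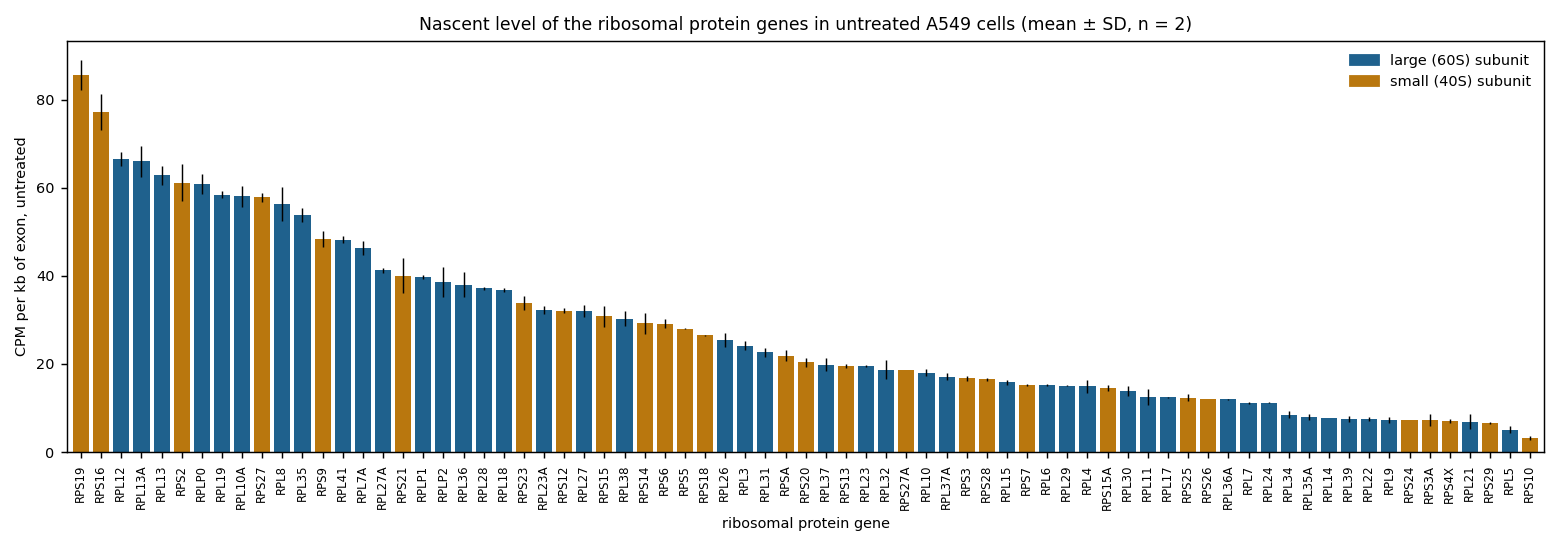
Nascent level of 73 of the 77 ribosomal protein genes in untreated cells, in CPM per kb of exon (bars: mean; lines: SD, n = 2), ordered by level and coloured by subunit. The levels run from 85.5 for RPS19 to 3.27 for RPS10, and proteins of both subunits are spread over the range.

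Copies elsewhere in the genome limit what these levels mean. The table lists 1342 pseudogene rows of these genes, with at least 1 for 76 of the 77 and 117 for RPL21 alone. Over all libraries the pseudogene rows held 57872 counts, against 784101 in the genes themselves. RPL21, a 60S protein, had 1713 counts while its pseudogenes had 2926, so its own level of 6.93 ± 1.6 CPM per kb (SD, n = 2) depends on where shared reads were placed. The largest pseudogene counts were those of RPS2 (11013, beside 15733 of its own) and RPL32 (3932, beside 7105). The values of RPS2 and RPL32 carry the same limit. Across the 77 genes the number of pseudogene rows and the level per kb were weakly related (Pearson r = -0.22 with log2 level, Spearman rho = -0.26, across genes, which are not independent replicates). The read-through genes RPS10-NUDT3, RPL17-C18orf32 and RPL36A-HNRNPH2, which share exons with RPS10, RPL17 and RPL36A, were listed with 0 counts in all 14 libraries. The 0 counts do not tell how reads in the shared exons were assigned or whether they were kept. The levels of RPS10, RPL17 and RPL36A depend on that.

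At 15 min neither inhibitor changed a ribosomal protein gene past the threshold, which was a Benjamini-Hochberg adjusted p under 0.05 over the 21910 genes tested (edgeR's quasi-likelihood test). With GSK591 0 of 77 were called, against 0.306% of all genes, and 2 had an unadjusted p under 0.05, against 6.85% of all genes. With MS023 0 of 77 were called, against 0.183% of all genes. Of the 77, 15 had an unadjusted p under 0.05, 9 higher and 6 lower, a larger share than the 8.08% of all genes. DESeq2 also called 0 in both comparisons, though it gave RPL39 no adjusted p with MS023. Median log2 fold changes were -0.01 and 0.02. The smallest p with GSK591 belonged to RPS29, with a log2 fold change of -0.28 ± 0.10 (SE) and an adjusted p of 0.362, and RPL23A, a 60S protein at the tunnel exit, followed at -0.20.

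The gene nearest to the threshold at 15 min was RPL39, a very small protein that lines the exit tunnel for the nascent peptide. Its 2 untreated libraries stood at 17.0 and 15.2 CPM, and those of MS023 at 15 min at 24.4 and 23.4 CPM. The log2 fold change was 0.57 ± 0.13 (SE), with an adjusted p of 0.0503 in edgeR's quasi-likelihood test. All 12 treated libraries lay above both untreated ones, between 18.5 and 24.8 CPM. Among these groups only GSK591 with Dex passed the test for RPL39 in that fit (0.52 ± 0.14, SE, adjusted p = 0.0133). That call did not hold in DESeq2 (adjusted p = 0.0613) or without either untreated library or the second library of GSK591 and Dex (adjusted p = 0.06, 0.175 and 0.161). With MS023 at 15 min RPL39 passed under 4 alternatives (adjusted p = 0.0122 to 0.047) and not with any 1 library left out (adjusted p = 0.197 to 0.615). RPL10, which joins the 60S subunit late in its assembly, had the next smallest p with MS023 at 15 min (log2 fold change -0.32, adjusted p = 0.274). It passed when scaled to counts outside mitochondrial genes (-0.48, adjusted p = 0.0174), where 3 members were called lower.

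At 3 h part of the family was lower with either inhibitor, and no member was called higher. With GSK591 26 of 77 genes fell (33.8%), where 3.79% of all genes tested were called lower and 7.25% higher. With MS023 18 of 77 fell (23.4%), where 2.23% of all genes were called lower and 5.40% higher. The median log2 fold change of the 77 genes was -0.21 in both comparisons, against -0.01 over all genes tested in both, and 65 and 71 of the 77 lay below 0. The 2 comparisons share the untreated libraries, so their likeness is not independent support. Highly transcribed genes were called more often. Among the 11817 genes at 6.96 CPM or more, a level that all 77 reach, 5.84% were called lower with GSK591 and 3.38% with MS023. Among the 995 genes at 68.4 CPM or more, 15.8% and 8.44% were called lower, and of the 39 ribosomal protein genes at that level 17 and 11 were (43.6% and 28.2%).

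The counts at 3 h fell when a library was left out, and the median stayed below 0. With GSK591 the 26 became 15 and 9 without the first and the second untreated library and 7 without the first GSK591 library, with medians of -0.15 to -0.28 over the 4 libraries left out in turn. With MS023 the 18 became 9 and 3 without the first and the second untreated library and 8 without the first MS023 library, with medians of -0.16 to -0.25. Scaled to library size alone, without TMM factors, 5 were called lower in each comparison, with medians of -0.08 beside 0.12 over all genes and of -0.18 beside 0.01.

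The summed signal of the family moved less than its strongest members. The 77 genes together had 6943 and 7225 CPM in the untreated libraries, 5878 and 6185 CPM with GSK591 at 3 h, and 5954 and 6259 CPM with MS023 at 3 h. All 4 libraries at 3 h lay below all 10 libraries at 15 min or untreated, whose sums ran from 6759 to 7229 CPM. The group means at 3 h were 85.1% and 86.2% of the untreated mean, and those of the 4 groups treated for 15 min were 96.8% to 100%. This separation depends on the TMM scaling. As a share of counts outside mitochondrial genes, the family took 1.46% and 1.53% in untreated cells. It took 1.29% to 1.47% in the libraries treated for 15 min. At 3 h it took 1.15% and 1.21% with GSK591 and 1.19% and 1.32% with MS023. On that scale 15 min and 3 h overlapped. The summed CPM are relative to the bulk of genes in a library, since no spike-in was used here. In a bulk assay fewer transcribing cells and less nascent RNA per cell cannot be told apart.

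**Figure D2:**
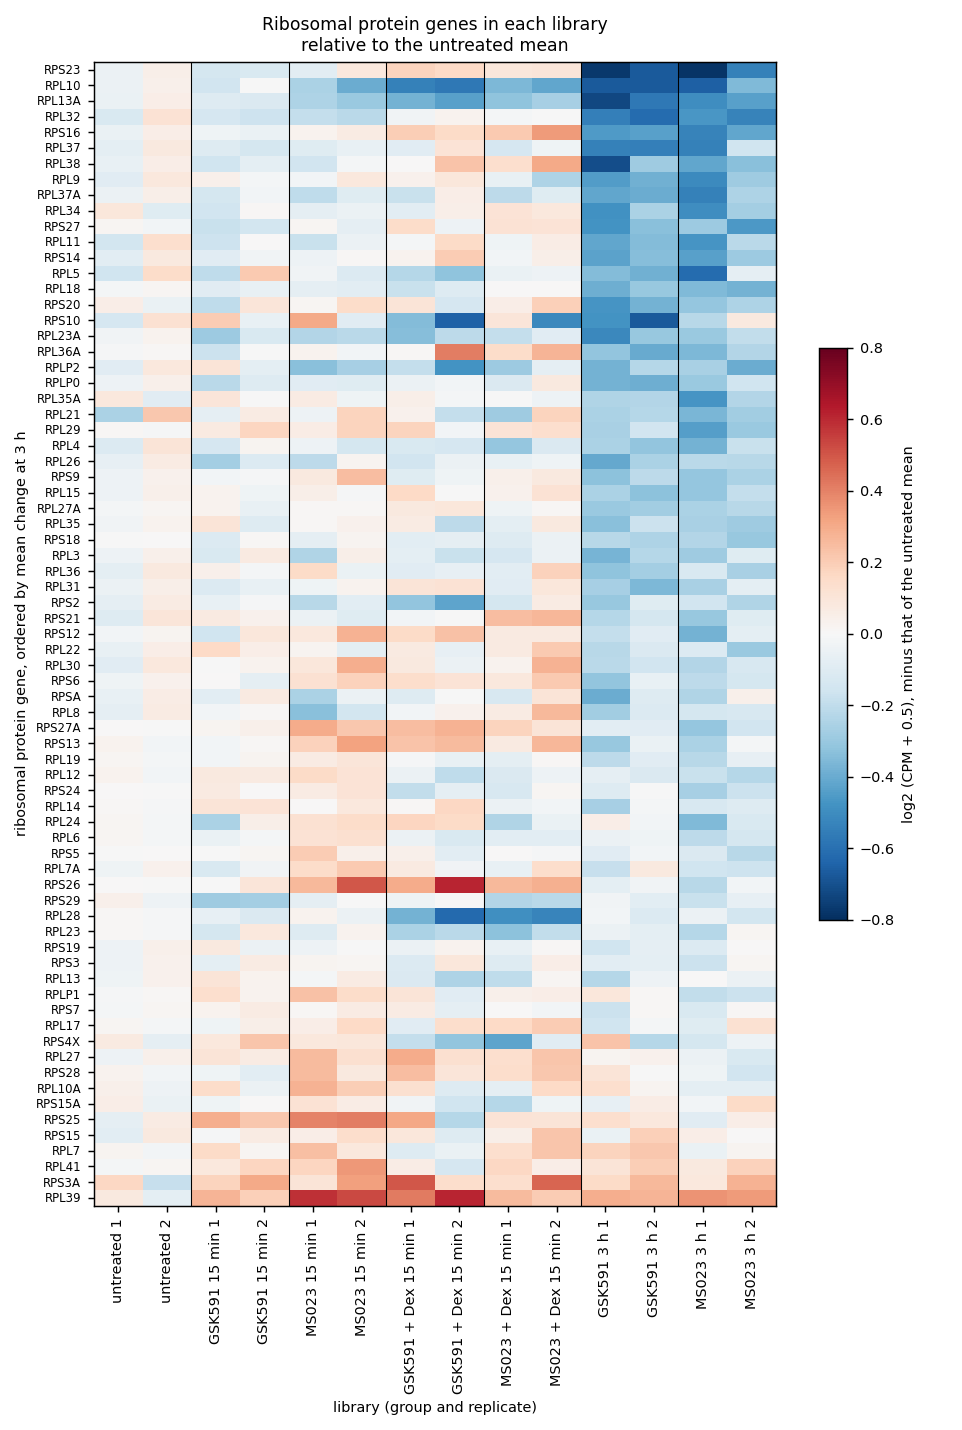
Log2 of CPM + 0.5 of 73 of the 77 ribosomal protein genes in each of the 14 libraries, minus that of the untreated mean (blue, lower; red, higher), with genes ordered by their mean change at 3 h. The 4 columns at 3 h are blue over most rows, with RPS23 at the top, while RPL28 and RPL10 are also blue in the columns with Dex, and RPL39 is red in every treated column.

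RPS23, a protein of the decoding centre of the 40S subunit (chr5:82273358-82278577, minus strand), changed most. It stood at 137 and 147 CPM in untreated cells, at 129 and 131 with GSK591 for 15 min and at 134 and 150 with MS023 for 15 min. With Dex it was at 161 and 159 CPM beside GSK591 and at 151 and 152 beside MS023. At 3 h it was at 82.8 and 88.9 CPM with GSK591 and at 82.2 and 97.5 with MS023. The libraries at 3 h lay well below all 10 others. The log2 fold change against untreated cells was -0.72 ± 0.10 (SE) with GSK591 and -0.66 ± 0.10 with MS023, with adjusted p-values of 7.82e-07 and 5.45e-06 (edgeR's quasi-likelihood test). In the authors' deposited table the log2 fold changes of RPS23 were -0.77 and -0.70. RPS23 shares exon bases with ATG10 on the opposite strand, and its group means had the widest range of the 77 genes, 0.89 on the log2 scale.

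Other 40S proteins that fell with both inhibitors included RPS16, at 193 and 208 CPM in untreated cells. At 3 h RPS16 was at 147 and 148 CPM with GSK591 and at 138 and 151 with MS023, all below both untreated libraries. In the libraries with Dex it was at 224 to 254 CPM, above the untreated level, though neither Dex group passed the test against untreated cells. RPS16 (chr19:39433207-39435948, minus strand) shares no exon with another gene. RPS14, the 40S protein whose gene is lost in the 5q- syndrome, fell by 0.38 and 0.36 on the log2 scale, and RPS27 by 0.41 and 0.37. RPS20 fell by 0.43 with GSK591.

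Of the 60S proteins, 19 of 46 fell with GSK591 and 11 with MS023, against 7 of 31 40S proteins in each comparison. RPL13A, which also acts in the interferon-induced GAIT complex (chr19:49487554-49492308, plus strand), was at 150 and 162 CPM in untreated cells. At 3 h it was at 94.0 and 105 CPM with GSK591 and at 111 and 116 with MS023. It was already below both untreated libraries in the 4 groups treated for 15 min, at 145 and 144 CPM with GSK591 and at 132 and 127 with MS023. Against untreated cells the change at 3 h was -0.65 ± 0.09 (SE, log2) with GSK591 and -0.47 ± 0.09 with MS023 (adjusted p = 2.32e-06 and 0.000496, edgeR's quasi-likelihood test).

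RPL10 (chrX:154389955-154409168, plus strand) also fell with both inhibitors. It was at 84.1 and 89.3 CPM in untreated cells, at 54.3 in both libraries of GSK591 at 3 h and at 54.8 and 67.9 with MS023 at 3 h. The changes were -0.67 ± 0.10 (SE, log2; adjusted p = 6.46e-06) and -0.51 ± 0.10 (adjusted p = 0.000632) by edgeR's quasi-likelihood test. RPL32, a 60S protein, was at 64.0 and 75.4 CPM untreated, at 47.5 and 45.3 with GSK591 at 3 h and at 50.4 and 47.9 with MS023 at 3 h. Its 2 untreated libraries differed more than those of most members, and still neither overlapped a library at 3 h. With MS023 at 3 h the call of RPL10 was lost without the first MS023 library (adjusted p = 0.103) and that of RPL32 without the second untreated library (adjusted p = 0.1). RPL13A, RPL10 and RPL32 share exon bases with other genes, RPL13A on the same strand and the other two on the opposite one.

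Of the stalk proteins, which recruit the translation factors, 1 of 3 passed in the reported fit. RPLP0, the stalk base that anchors the others, fell by 0.39 on the log2 scale with GSK591 at 3 h (adjusted p = 0.00678, edgeR's quasi-likelihood test) and had -0.23 with MS023. RPLP2 had -0.31 and -0.33 and RPLP1 0.05 and -0.19, and none of these passed in that fit. RPLP2 did pass with both inhibitors when scaled to counts outside mitochondrial genes (adjusted p = 0.00838 and 0.0298). It also passed in a fit of only the groups compared (0.00879 and 0.0292) and with the exon length and GC trend removed (0.0207 and 0.0272). With 1 library left out its change ran from -0.39 to -0.21 and from -0.4 to -0.22. RPL5 and RPL11, which bind 5S ribosomal RNA and hold MDM2 when assembly fails, stood at -0.38 and -0.39 (log2) with GSK591 and at -0.35 and -0.35 with MS023. Of these 4 values only that of RPL11 with GSK591 passed (adjusted p = 0.0329, edgeR's quasi-likelihood test). Under alternatives RPL11 with MS023 passed with the replicate block (adjusted p = 0.0489), RPL5 with GSK591 in a fit of only the groups compared (0.0455) and RPL5 with MS023 without the second MS023 library (0.0437), while RPL11 with GSK591 did not pass in DESeq2 (0.113). RPL23, another protein that binds MDM2, had -0.06 and -0.11. RPL3, at the peptidyl transferase centre, fell by 0.30 with GSK591 with an adjusted p of 0.0498 in the same test, at the edge of the threshold, and had -0.19 with MS023. The call of RPL3 was lost in DESeq2 (adjusted p = 0.108). In edgeR's quasi-likelihood test it was lost with no count filter (0.0539) and with DESeq2 size factors (0.0529). With library size alone the calls of RPL3, RPL11 and RPLP0 were lost in that test (0.56, 0.346 and 0.264). The calls of RPLP0, RPL11 and RPL3 were each lost without the second untreated library or either GSK591 library (adjusted p = 0.0604 to 0.498), and that of RPL3 also without the first untreated one (0.128).

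Several well-known members did not pass the test against untreated cells at 3 h. RPS19 was at 316 and 334 CPM untreated, at 291 and 310 with GSK591 and at 301 and 325 with MS023, so that its groups overlapped or nearly did. RPS3, at the mRNA entry, and RPS7 had with RPS19 the smallest ranges of group means, 0.10, 0.13 and 0.13 on the log2 scale. RPS6, the target of S6 kinase, had -0.18 (log2) with either inhibitor. RPSA, also known as the laminin receptor, had -0.25 and -0.10, RPS2 -0.20 and -0.20, RPS27A, which is made as a fusion with ubiquitin, -0.09 and -0.24, and RPS4X 0.02 and -0.10. RPL7A had -0.05 and -0.16, RPL10A, a protein of the L1 stalk, 0.08 and -0.08, and RPL41, the smallest of the family, 0.15 and 0.13. RPS10 had -0.61 with GSK591 (adjusted p = 0.0864, edgeR's quasi-likelihood test) and -0.08 with MS023. Of these, RPSA, RPS2 and RPS10 passed with GSK591 when scaled to counts outside mitochondrial genes (adjusted p = 0.0459, 0.0438 and 0.0365), and RPSA and RPS10 also in a fit of only the groups compared (0.038 and 0.036).

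**Figure D3:**
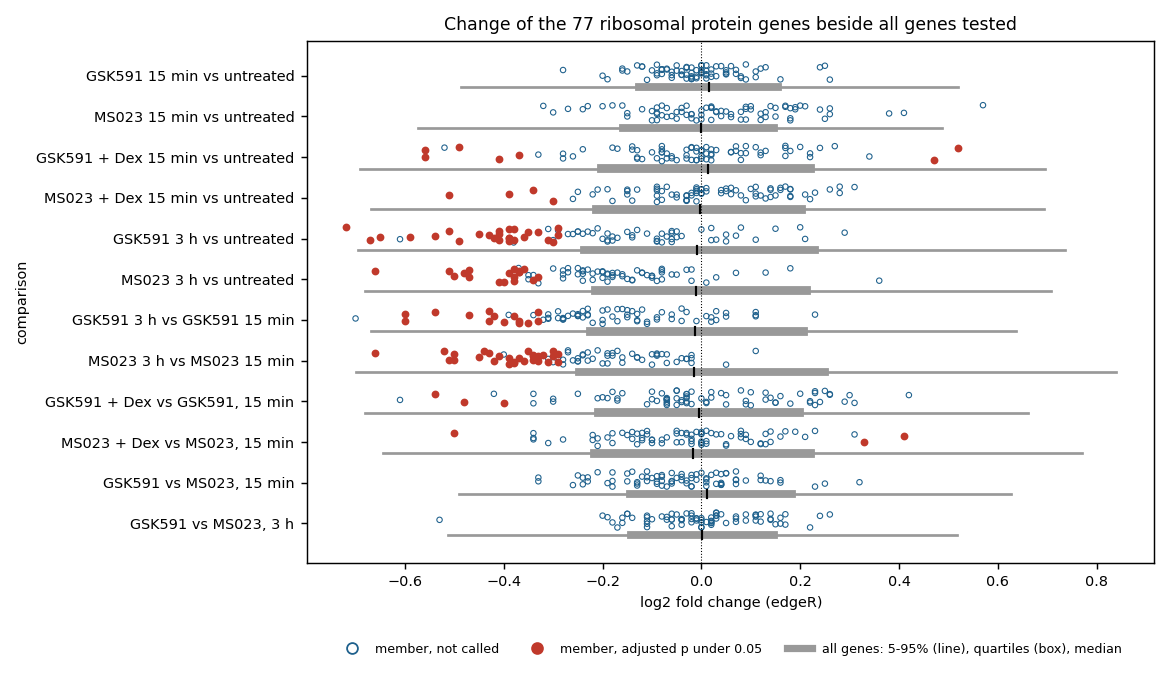
Log2 fold changes of the 77 ribosomal protein genes in 12 comparisons (open circles: adjusted p of 0.05 or above; filled: under 0.05, edgeR's quasi-likelihood test), above the quartiles (box), 5% to 95% range (line) and median of all 21910 genes tested. The genes shift to the left in the 4 comparisons of 3 h, with medians of -0.21 to -0.25, and are centred near 0 in the other comparisons.

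Comparison of 3 h with 15 min of the same inhibitor leaves out the untreated libraries. Time in culture and time with the inhibitor cannot be told apart in it either. With GSK591 14 of 77 genes were lower at 3 h than at 15 min and 0 higher, where 2.77% of all genes were called lower and 3.65% higher. With MS023 28 of 77 were lower and 0 higher, where 4.40% of all genes were called lower and 7.65% higher. Among genes at 6.96 CPM or more, 4.41% were called lower with GSK591 and 6.76% with MS023. At 68.4 CPM or more the shares were 11.9% and 12.5%, against 25.6% and 30.8% of the ribosomal protein genes at that level. Median log2 differences were -0.22 and -0.25, against -0.01 over all genes in both. These 2 comparisons share no library. Genes lower in both made up 7 of the 14 and 7 of the 28, with RPL9, RPL32, RPS14, RPS16, RPS20 and RPS23 among them. With 14 and 28 of 77 called, some genes would be shared by chance alone, and the overlap was not tested. Across the 77 genes the 2 sets of differences had a Pearson r of 0.25 (Spearman rho = 0.23), below the 0.41 over all 21910 genes, as a description across genes within these libraries. Leaving out any 1 library took the 14 to between 4 and 6 and the 28 to between 6 and 14, with medians of -0.17 to -0.27 and -0.23 to -0.26.

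RPS23 again had the smallest p in both, with a difference of -0.60 ± 0.10 (SE, log2; adjusted p = 9.5e-05) with GSK591 and of -0.66 ± 0.10 (adjusted p = 4.15e-06) with MS023 by edgeR's quasi-likelihood test. With GSK591 it was followed by RPL10 at -0.60 and RPL13A at -0.54. For RPL10 and RPL13A the difference with MS023 was only -0.18 and -0.20 and did not pass, and both stood lower in the 15 min libraries of MS023 than in those of GSK591. With MS023 RPS23 was followed by RPS16 at -0.52, RPS27A at -0.50 and RPS9, a 40S protein, at -0.45. RPS27A was at 71.8 and 67.7 CPM with MS023 for 15 min, at 46.9 and 52.2 at 3 h, and at 58.4 and 58.1 in untreated cells, so that its 15 min libraries lay above and its 3 h libraries below the untreated level. RPLP1, RPL7A, RPL10A, RPL12 and RPS6 were also lower at 3 h than at 15 min with MS023, by 0.32 to 0.38 on the log2 scale, and did not pass against untreated cells. Of the 40S proteins 16 of 31 were lower with MS023 and 6 with GSK591, and of the 60S proteins 12 and 8 of 46.

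**Figure D4:**
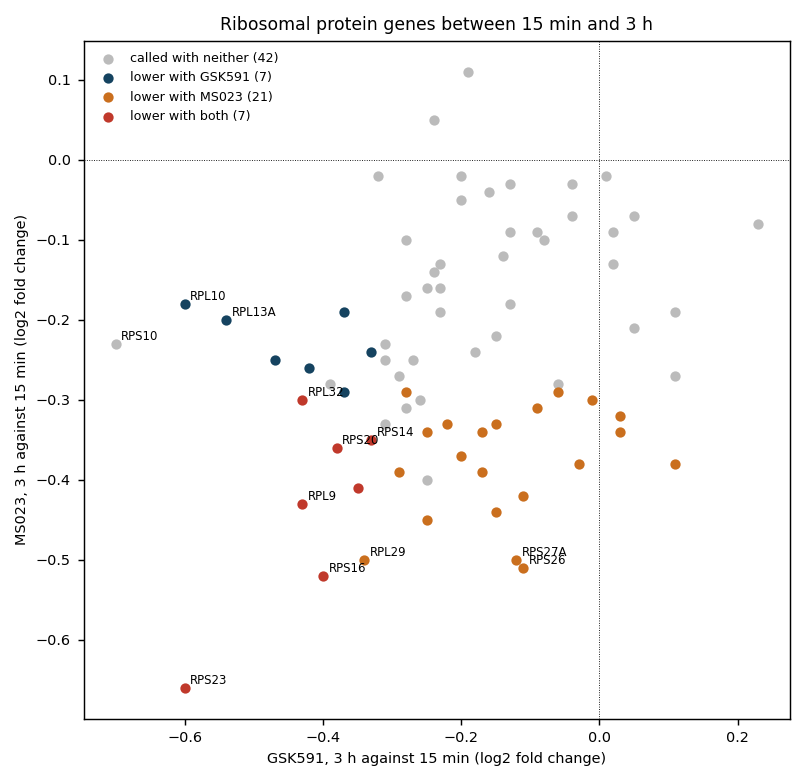
Log2 fold change of each ribosomal protein gene between 15 min and 3 h of GSK591 (horizontal axis) and of MS023 (vertical axis), coloured by the comparison in which it passed the test. The 7 genes lower with both sit in the lower left with RPS23 furthest out, and 42 genes passed in neither.

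A direct comparison of the inhibitors called no member. At 15 min 0 of 77 differed between GSK591 and MS023, against 1.09% of all genes. An unadjusted p under 0.05 was found for 10 of the 77 and for 9.75% of all genes. RPLP2 had the smallest p there, with 0.32 ± 0.11 (SE, log2) higher in GSK591 and an adjusted p of 0.207 (edgeR's quasi-likelihood test). At 3 h 0 of 77 differed, and none of the 21910 genes was called. An unadjusted p under 0.05 was found for 3 of the 77 and for 6.02% of all genes. The differences between GSK591 and MS023 at 3 h ran from -0.53 for RPS10 (SE 0.24) to 0.26, with a median of 0.00. DESeq2 also called 0 members at both times. The number of genes that passed with GSK591 and not with MS023 at 3 h is therefore not a shown difference between the inhibitors.

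With Dex few members differed from untreated cells, and the median of the family stayed near 0. Against untreated cells 5 of 77 were lower and 2 higher with GSK591 and Dex, where 2.64% of all genes were called lower and 3.21% higher. With MS023 and Dex 4 were lower and 0 higher, where 2.67% were called lower and 4.99% higher. Medians were -0.01 and 0.00. Without the second library of GSK591 and Dex the 7 calls became 2, without the first and the second untreated library 4 and 3, and the 4 calls with MS023 and Dex became 1 without the second untreated or either MS023 and Dex library and 2 without the first untreated one. The shares lie near those of all genes: at 6.49% and 5.19% for the lower calls, they stand against 4.28% and 4.18% among genes of at least 6.96 CPM.

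RPL28, a 60S protein (chr19:55385345-55403250, plus strand), was lower in every comparison with Dex. It was at 259 and 256 CPM untreated, at 246 and 238 with GSK591 and at 263 and 249 with MS023 for 15 min. With Dex it was at 198 and 168 CPM beside GSK591 and at 183 and 178 beside MS023. At 3 h without Dex it was at 253 and 238 CPM with GSK591 and at 249 and 232 with MS023. The 4 libraries with Dex lay below all 10 without it. RPL28 fell by 0.40 ± 0.10 (SE, log2; adjusted p = 0.0144) beside GSK591 and by 0.50 ± 0.10 (adjusted p = 0.00051) beside MS023 when Dex was added, in edgeR's quasi-likelihood test. The call beside GSK591 was lost without the first or the second GSK591 library (adjusted p = 0.135 and 0.0636) or the second library of GSK591 and Dex (0.291). Against untreated cells the call of RPL28 with GSK591 and Dex was lost without the second library of that group (adjusted p = 0.0611). Its log2 fold changes against untreated cells with Dex beside GSK591 and beside MS023 were -0.49 and -0.51 in both the present fit and the authors' deposited table.

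RPL10 and RPL13A were lower with Dex against untreated cells, though 3 of these 4 calls were lost when some single libraries were left out. With MS023 and Dex the call of RPL13A (-0.30 ± 0.09, SE, log2) was lost without any 1 of the 4 libraries (adjusted p = 0.108 to 0.312), with library size alone (0.227) and with the exon length and GC trend removed (0.079). That of RPL10 was lost with library size alone (adjusted p = 0.092), without the second untreated library (0.129) and without the first or the second MS023 and Dex library (0.0515 and 0.123). With GSK591 and Dex the call of RPL13A was lost without the second untreated library (adjusted p = 0.105) or the second GSK591 and Dex library (0.056). MS023 alone for 15 min gave RPL13A a log2 fold change of -0.27, which did not pass, and Dex added to MS023 a further -0.02. RPL10 was at 59.6 and 58.3 CPM with GSK591 and Dex and at 67.5 and 64.9 with MS023 and Dex, against 78.1 and 86.6 with GSK591 and 72.8 and 65.6 with MS023 alone for 15 min. With Dex added to GSK591, RPL10 fell by 0.48 ± 0.10 (SE, log2; adjusted p = 0.00377, edgeR's quasi-likelihood test), and the libraries of those 2 groups did not overlap. The call of RPL10 was lost without the second GSK591 library (adjusted p = 0.0985) or the second library of GSK591 and Dex (0.0521). RPL10 and RPL28 were among the 3 members called in that comparison, all lower, where 2.27% of all genes were called lower and 1.43% higher. Beside MS023, RPL28 was lower and RPL8 and RPS21 were higher (0.41 and 0.33, log2), where 3.07% of all genes were called lower and 5.90% higher. The call of RPL8 was lost without the first MS023 library or the second of MS023 and Dex (adjusted p = 0.211 and 0.154), and that of RPS21 without any 1 of the 4 libraries (0.14 to 0.209). RPL8, a 60S protein, was at 127 and 145 CPM with MS023 and Dex, at 96.3 and 110 with MS023 alone and at 116 and 127 untreated, so the untreated libraries lay above those of MS023 alone and reached the lower one with Dex.

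RPS26, a 40S protein at the mRNA exit, was higher with GSK591 and Dex than untreated (0.47 ± 0.13, SE, log2, adjusted p = 0.019, edgeR's quasi-likelihood test), and RPS2, a substrate of PRMT3, was lower there by 0.37. The 2 libraries of that group were at 30.6 and 38.1 CPM for RPS26, and the untreated ones at 24.8 and 24.7. The call was lost without either untreated library (adjusted p = 0.156 and 0.129) or the second library of GSK591 and Dex (0.307). It was also lost in DESeq2 (adjusted p = 0.0789), with library size alone (0.262), with counts outside mitochondrial genes as library size (0.147) and in a fit of only the groups compared (0.0562). With MS023 for 15 min RPS26 was at 29.7 and 35.1 CPM, which did not pass. For no member did the effect of Dex pass a test of its difference between the inhibitors: 0 of 77 were called, against 1.15% of all genes, and DESeq2 called 0. An unadjusted p under 0.05 was found for 13 of the 77 and for 10.8% of all genes. RPL39 had the smallest p of that comparison, with a difference of 0.62 ± 0.19 (SE, log2) and an adjusted p of 0.0977 (edgeR's quasi-likelihood test).

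**Figure D5:**
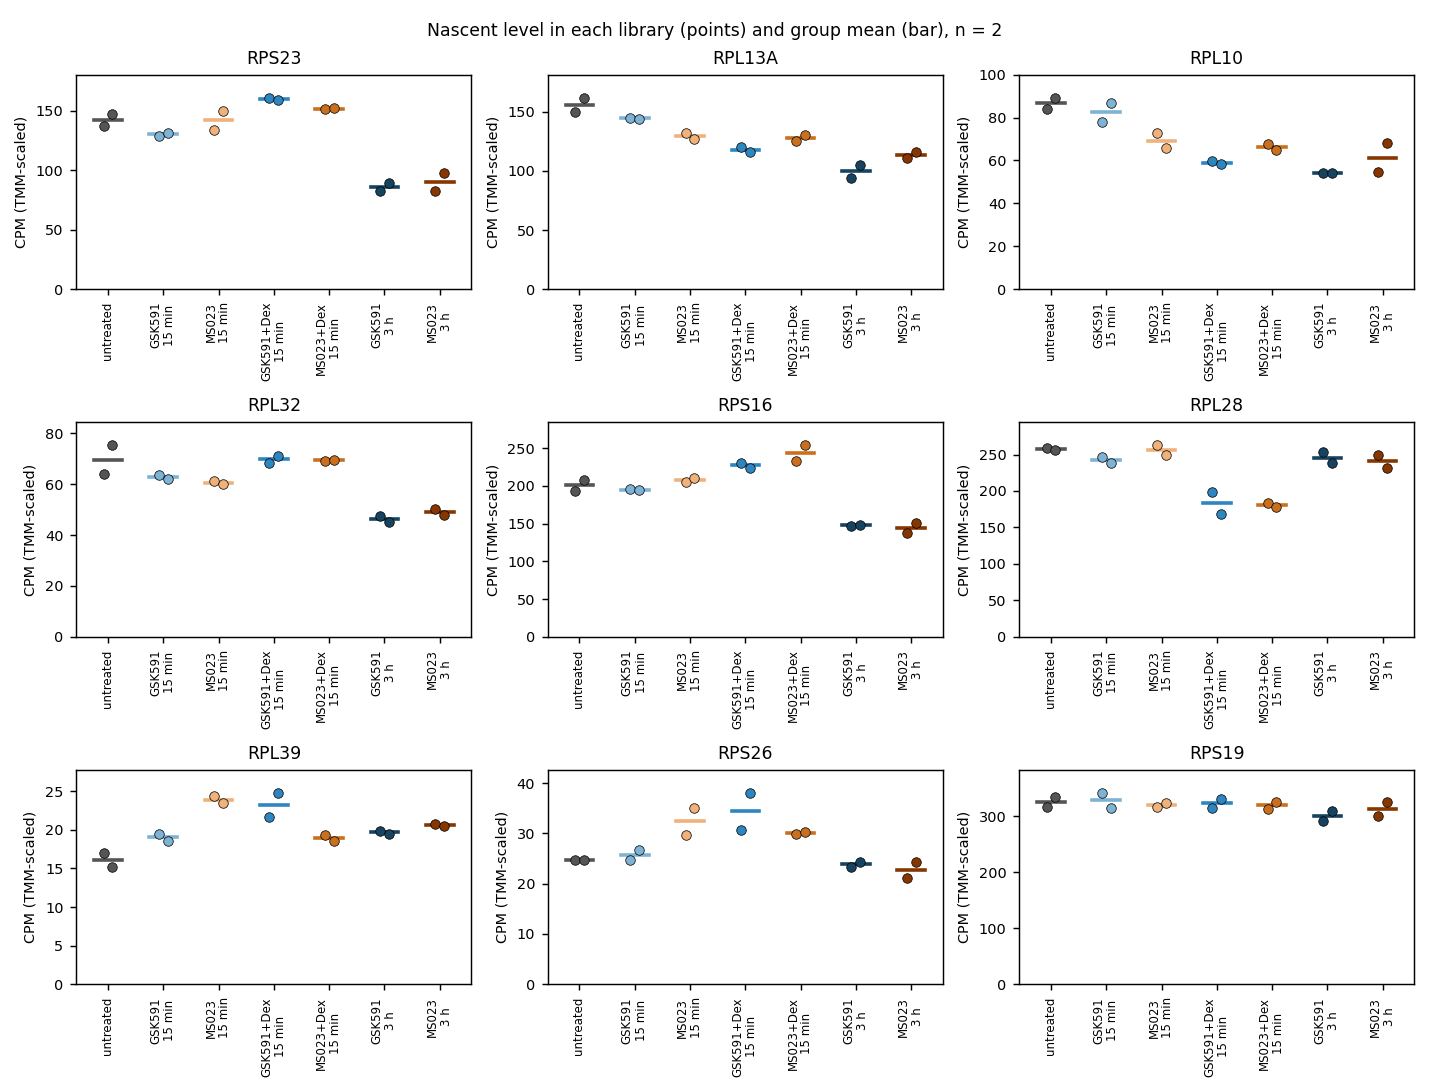
CPM on TMM-scaled library sizes in each library (points) and group mean (bars, n = 2) for 9 ribosomal protein genes. RPS23, RPL13A, RPL32 and RPS16 have their lowest group means at 3 h, RPL10 is low at 3 h and with Dex, RPL28 is low only in the 4 libraries with Dex, RPL39 is lowest in untreated cells, and RPS19 stays nearly level.

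Members with and without each feature examined were among those lower at 3 h. Of the 46 genes with a TOP motif at the annotated start 16 fell with GSK591 and 11 with MS023, and of the 16 with a start region but no TOP motif there 4 and 2, among them RPL32 and RPL9. Median log2 fold changes were -0.24 and -0.23 with the motif and -0.07 and -0.13 without it. Of the 28 genes that host snoRNA genes 10 and 7 fell (medians -0.25 and -0.24), and of the 49 that host none 16 and 11 (-0.19 and -0.2). Of the 38 genes that share no exon with another gene 11 and 8 fell (medians -0.13 and -0.19), and of the 39 that do 15 and 10 (-0.29 and -0.24). Of the 42 genes with 10 or more pseudogene rows 15 and 9 fell (medians -0.24 and -0.2), and of the other 35 genes 11 and 9 (-0.19 and -0.22). Differences between these medians were not tested. Across the 77 genes the mean change at 3 h was weakly related to exon length (Pearson r = -0.15), transcript GC content (-0.03), CPM (-0.23, log2) and number of pseudogene rows (0.03), all as descriptions across genes.

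Other parts of the translation machinery were set beside the family with lists whose choice was made with results of these data known. RACK1, a 40S subunit component with another kind of name, fell by 0.38 with GSK591 and by 0.35 with MS023 at 3 h (log2). Of 16 tested other genes with TOP mRNAs, 3 fell with each inhibitor and 0 rose, namely EEF2, the translocation factor of elongation, HNRNPA1 and NAP1L1, with list medians of -0.15 and -0.21. EEF2 fell by 0.41 and 0.33, while EEF1A1, which brings aminoacyl-tRNA to the ribosome, had -0.17 and -0.07. Of 15 initiation factors 4 fell and 1 rose with GSK591, and 3 fell and 0 rose with MS023, EIF4A1, the helicase that unwinds mRNA leaders, in both (-0.36 and -0.38). The medians of the initiation factors were -0.12 and -0.2, beside -0.21 for the ribosomal protein genes in both comparisons. Of 78 tested genes of mitochondrial ribosomal proteins, which are encoded in the nucleus, 1 fell and 7 rose with GSK591, and 1 fell and 2 rose with MS023, with medians of 0.00 and -0.02. Of 170 tested pseudogenes of the family 3 fell and 1 rose with GSK591, and 1 fell and 0 rose with MS023, with medians of -0.2 and -0.13. These counts stand beside the 3.79% of all genes called lower and 7.25% called higher with GSK591 and the 2.23% and 5.40% with MS023.

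The authors' deposited tables gave fewer calls in the same direction. In the authors' deposited table of GSK591 at 3 h 11 members were lower, where 1.67% of its genes with an adjusted p were lower. In the authors' deposited table of MS023 at 3 h 7 were lower, where 0.530% of such genes were lower. The authors' deposited tables with Dex called RPL10, RPL13A and RPL28 lower beside GSK591 (0.680% of genes) and RPL28 lower beside MS023 (0.477%). Those of 15 min of either inhibitor called 0 members, with 0 and 6 members under an unadjusted p of 0.05 in the authors' deposited tables.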

How the data were processed

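PRO-seq libraries of A549 cells were deposited as a table of read counts per gene, made by the authors with featureCounts 2.0.1 on hg38, per the submitters' processing notes. The aligner, strand setting and counted feature are not given in the sources used here. The authors' deposited DESeq2 tables hold, per the file headers, log2 fold changes with standard errors, raw and adjusted p-values, the test score and the mean signal of each gene. Of these, log2 fold changes and p-values were used.

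All 58780 gene identifiers matched GENCODE 29 (GRCh38), which gave coordinates and exon lengths. Counts were tested with edgeR 4.0.16 (R 4.3.3): TMM scaling, edgeR's expression filter (21910 genes), 1 coefficient for each of 7 groups over 14 libraries, 7 residual degrees of freedom, biological coefficient of variation 0.073, quasi-likelihood test, 13 contrasts, Benjamini-Hochberg adjustment over all genes tested, threshold 0.05. CPM were taken on TMM-scaled library sizes. Total counts ran from 5768312 to 9606938. The figure of all libraries adds 0.5 CPM before the log2.

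The genes named were 18 members of known function, the 4 called members with the smallest p in each direction of a contrast (or the 2 with the smallest p), and the extremes of level and of range; others were named after their values were seen. The members and lists were chosen with earlier results of these data known. Alternatives were DESeq2 1.42.0, other scalings, no count filter, fewer groups, a replicate block, each library left out, and 2 chosen after seeing the data (exon length and GC trend removed; TMM factors without the ribosomal protein genes). Scripts were tested on simulated counts. Some members are counted in every total but not reported one by one here.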

Additional observations from a re-analysis of the deposited data

Results flagged for a closer look

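Between 3 h and 15 min of the same inhibitor, 14 ribosomal protein genes differed with GSK591 and 28 with MS023. All were lower at 3 h (edgeR's quasi-likelihood test, adjusted p under 0.05). The untreated libraries drop out of this difference. Time in culture and time with the inhibitor therefore cannot be told apart in it. Of all genes tested 2.77% and 4.40% were called lower, and of those at 68.4 CPM or more 11.9% and 12.5%. Without the second GSK591 library of 15 min the 14 became 4, and without the second MS023 library of 15 min the 28 became 6. With library size alone the 14 became 3, and scaled to counts outside mitochondrial genes the 28 became 7.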

How the results depend on the processing

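Counts of ribosomal protein genes called are given with the alternative in place of the reported one. With library size alone they were 1 for MS023 at 15 min (reported 0), 1 for MS023 with Dex against untreated (4), 5 for GSK591 and 5 for MS023 at 3 h against untreated (26, 18), 3 for GSK591 at 3 h against 15 min (14), and 9 for Dex added to GSK591 (3). Under this scaling the median of all genes lay between -0.21 and 0.16, and under the next between -0.16 and 0.10. Scaled to counts outside mitochondrial genes they were 11 (7) where GSK591 and Dex met untreated cells, 3 after 15 min of MS023, 7 for MS023 at 3 h against 15 min (28), 6 for Dex added to GSK591 and 2 for the difference between the Dex effects (0). DESeq2 gave 10 for MS023 at 3 h, 8 for GSK591 and 13 for MS023 at 3 h against 15 min. No count filter gave 9 and 18 in the last 2, and a fit of only the groups compared gave 17 for MS023 at 3 h against 15 min and 1 for MS023 at 15 min. Removal of the exon length and GC trend, added after seeing the data, gave 1 for MS023 at 15 min and 5 each for Dex added to GSK591 and to MS023 (3).

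With 1 library left out at a time, counts ran from 7 to 18 for GSK591 and 3 to 13 for MS023 at 3 h, 4 to 6 and 6 to 14 for 3 h against 15 min, 2 to 9 and 1 to 2 for GSK591 and MS023 with Dex against untreated, 1 to 6 and 1 to 2 for Dex added to GSK591 and to MS023, and 0 to 2 for the difference between the Dex effects. The lowest for Dex added to GSK591 came without the second GSK591 or the second GSK591 and Dex library, the highest without the first GSK591 and Dex library. For Dex added to MS023 the count was 1 without the first MS023 or the second MS023 and Dex library. A lone library is then assumed to vary like the others.

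The labels do not pair the numbered libraries. Over 21 pairs of groups the correlation of deviations ran from -0.11 to 0.22, with 7 over 0.1 and 1 under -0.1, short of every pair being over 0.1. The replicate block gave 1 for MS023 at 15 min (RPL39) and 5 for Dex added to GSK591, and moved no other count by over 1.5 times.

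Among the genes named, signs turned only where the gene had not passed in that comparison. At 3 h with GSK591, library size alone gave 0.07 for RPL23, 0.05 for RPS27A and RPS3 and 0.09 for RPL7A; library size without mitochondrial genes gave -0.06 for RPLP1, -0.09 for RPS4X and -0.03 for RPL10A; trend removal gave 0 for RPS4X. With 1 library left out RPL7A ran from -0.20 to 0.08 and RPS4X from -0.23 to 0.22 with GSK591, and RPS10 from -0.22 to 0.09, RPL23 from -0.22 to 0.01, RPS3 from -0.16 to 0.02 and RPSA from -0.23 to 0.04 with MS023. RPS23, RPL13A, RPL10 and RPL32 were called lower with GSK591 at 3 h in every alternative run. The causes were not tested.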

Other observations

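Among 7 tested paralogs of the ribosomal protein genes, RPS27L and RPL22L1 moved in opposite directions at 3 h. RPS27L, a p53-responsive relative of RPS27, rose by 0.36 ± 0.12 (SE, log2) with GSK591 and by 0.54 ± 0.12 with MS023 against untreated cells, where RPS27 itself fell by 0.41 and 0.37. Against 15 min of the same inhibitor RPS27L rose by 0.47 and 0.84 (adjusted p = 0.0135 and 3.66e-06, edgeR's quasi-likelihood test). RPL22L1, a paralog of RPL22, fell by 0.50 and 0.51 against untreated cells, and by 0.47 and 0.50 against 15 min. Against untreated cells RPL26L1 fell by 0.43 with GSK591 and did not pass with MS023 (-0.36), and no other tested paralog passed at 3 h. With GSK591 RPL26L1 and RPS27L lay close to the threshold (adjusted p = 0.0425 and 0.0441, edgeR's quasi-likelihood test). The paralogs named here were chosen after their values were seen.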
